A study of Homo sapiens with 4 samples.

Results

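The genes described here are macrophage migration inhibitory factor (*MIF*), its homologue D-dopachrome tautomerase (*DDT*), the antisense transcript *MIF-AS1*, and the receptors and co-receptors of MIF, namely *CD74*, *CD44*, *CXCR4*, *CXCR2* and *ACKR3*. They were matched by gene symbol in RNA sequencing libraries of PC9 cells, an *EGFR*-mutant human lung adenocarcinoma line, and of osimertinib-resistant PC9OR cells derived from it. Osimertinib is an inhibitor of the EGFR kinase. The set holds 8 genes of the 16813 listed in at least 1 library, and it was chosen on the PC9OR and PC9 values themselves. The members' values are therefore a description, with no test.

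Each line had 2 libraries that the labels call biological replicates, 4 libraries in all. Both lines carry the labels genotype WT and lung adenocarcinoma cells, with the phenotype control for PC9 and osimertinib resistant for PC9OR, and both were grown in RPMI 1640 with fetal bovine serum. The labels give no osimertinib dose or exposure for these libraries. Only 1 resistant line was sequenced, so line and resistance cannot be told apart.

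MIF is a cytokine that also has a tautomerase activity, and DDT, sometimes called MIF-2, is a related protein with the same fold. MIF binds CD74 at the cell surface, and CD74 passes the signal on through the co-receptor CD44 to SRC family kinases and to the ERK and PI3K-AKT pathways. MIF also binds the chemokine receptors CXCR2, CXCR4 and ACKR3, and CD74 has a separate role as the invariant chain that guards MHC class II molecules during their assembly.

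*MIF* and *DDT* lie on chromosome 22 of GRCh37, *MIF* from 24236570 to 24237414 on the plus strand and *DDT* from 24312731 to 24322716 on the minus strand, with 75317 bases between them.

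The depth was 23201307 and 29062064 expected counts in PC9 replicates 1 and 2 and 31948974 and 32203998 in PC9OR replicates 1 and 2. An expected count is an estimated number of reads of a gene. A floor of 3 counts, which covers counting error only, was 0.0936 to 0.128 CPM in the 4 libraries, CPM being counts scaled to a common library size. Replicates were farther apart in PC9 than in PC9OR (biological coefficients of variation 0.241 and 0.104), and in PC9 their difference followed transcript length (rank correlation −0.457 over 11429 genes, against 0.00159 in PC9OR). The log2 difference of PC9OR minus PC9 also followed length, with a rank correlation of −0.403, so shorter transcripts such as those of *MIF* and *DDT* tended to higher values. All 6 epithelial markers were over the floor, with a summed FPKM of 5511 to 5720 in PC9OR and 2576 to 2987 in PC9. The 4 keratins were higher in PC9OR, *CDH1* was lower, at 22.02 and 20.07 against 69.49 and 49.53 FPKM, and *EPCAM* was at a log2 fold change of −0.01. Of the 6 lung adenocarcinoma markers, the 4 surfactant genes were at or under the floor, *NKX2-1* had 0, 0, 4 and 12 counts and *NAPSA* 4, 0, 11 and 5. *PTPRC*, *CD3E* and *MS4A1* of 6 leukocyte markers, *DCN* and *LUM* of 6 fibroblast markers and *KDR* of 5 endothelial markers were at or under the floor in every library. The summed FPKM of these lists was 2.59 to 6.80 for leukocytes, 0.20 to 0.26 for fibroblasts and 0.88 to 6.51 for endothelial cells. The first and last sums were lower in both PC9OR libraries and were mostly 1 gene each, *CD68* with 6.36 and 5.12 FPKM in PC9 against 2.75 and 2.49 in PC9OR, and *CDH5* with 6.08 and 4.10 against 0.86 and 0.80, while *CSF1R* had 0.06 and 0.05 against 0.12 and 0.08. Their part in the results was not tested.

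Of the ligands, *MIF* (Entrez 4282) had 1860 and 4470 expected counts in the PC9 libraries and 54352 and 44870 in the PC9OR libraries. In FPKM, a level scaled by transcript length and library depth, these were 130 and 252 in PC9 and 2834 and 2266 in PC9OR. The PC9OR libraries lay far above those of PC9, and PC9 replicate 1 was the lowest. Its mean was 117 ± 53.5 CPM (SD, n = 2) in PC9 and 1550 ± 208 CPM (SD, n = 2) in PC9OR, a log2 fold change of 3.72 (SE 0.364) or 13.2-fold. By FPKM, *MIF* stood at rank 341 and 209 among the listed genes of the PC9 libraries and at rank 6 and 11 in the PC9OR libraries. Its transcript took 0.00802% and 0.0154% of all counts in PC9 and 0.170% and 0.139% in PC9OR.

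*DDT* (Entrez 1652) had 358 and 790 expected counts in PC9 and 14344 and 12163 in PC9OR, or 21.95 and 39.14 FPKM against 654 and 538 FPKM. Its mean was 21.3 ± 8.57 CPM in PC9 and 414 ± 47.7 CPM in PC9OR (SD, n = 2), a log2 fold change of 4.27 (SE 0.320) or 19.3-fold. As with *MIF*, the lines did not overlap, PC9 replicate 1 was the lowest library and PC9OR replicate 1 the highest. In the order of all 13148 genes tested by log2 fold change, *DDT* stood at rank 76 from the top and *MIF* at rank 108. The log2 fold changes of these short transcripts, with 561 counted bases for *MIF* and 620 for *DDT*, were smaller once the length trend of each library was fitted as an offset. They were then 3.12 for *MIF*, or 8.67-fold, and 3.69 for *DDT*, or 13.0-fold. Without PC9 replicate 1 they were 9.95-fold and 15.04-fold, and without PC9 replicate 2 they were 19.3-fold and 26.8-fold.

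The proportion between both ligands was less variable than their levels. The FPKM of *MIF* was 5.91 and 6.45 times that of *DDT* in the PC9 libraries (6.18 ± 0.385, SD, n = 2) and 4.34 and 4.21 times in the PC9OR libraries (4.27 ± 0.0872, SD, n = 2). *MIF* was thus the more abundant ligand in every library, and the ratio was lower in both PC9OR libraries than in both PC9 libraries. Their FPKM together came to 152 and 292 in PC9 and 3487 and 2804 in PC9OR. Between the PC9 replicates *MIF* differed by 0.97 and *DDT* by 0.84 on the log2 scale, both over the 95th percentile of all genes tested (0.72), whereas the PC9OR replicates differed by −0.27 and −0.24, within the central 90% of genes (−0.53 to 0.49).

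The GENCODE transcripts of *MIF* and *DDT* shared 0 words of 50 bases. *DDT* overlaps *DDTL*, a similar gene next to it on the other strand, with 1223 of its 4181 words found on the opposite strand and 267 on the same strand. *DDTL* had 3.29 expected counts in PC9OR replicate 2 and was not listed in the other libraries, so how reads were divided between the pair is uncertain.

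*MIF-AS1* (Entrez 284889) is a long non-coding RNA that runs from 24236613 to 24241117 of chromosome 22 on the strand opposite to *MIF*. It had 19 and 10 counts in PC9 and 13.8 and 17.6 in PC9OR. The libraries of both lines overlapped, at 0.579 ± 0.328 CPM in PC9 and 0.4999 ± 0.0889 CPM in PC9OR (SD, n = 2), with a log2 fold change of −0.19 (SE 0.599). Without PC9 replicate 1 the value was 0.52, a change of direction. For each count of *MIF-AS1* there were 97.9 and 447 counts of *MIF* in the PC9 libraries and 3944 and 2548 in the PC9OR libraries. In the annotation, 687 of the 730 exonic bases of *MIF* are also exonic in *MIF-AS1*, and 81.5% of the 50-base words of *MIF* occur in *MIF-AS1* on the opposite strand. The kit keeps the strand, but the strand setting of the counting is not given in the sources used here, so the counts of this pair are uncertain.

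Among the receptors, *CD44* (Entrez 960, chromosome 11 from 35160429 to 35253949, plus strand), the receptor for hyaluronan and the signalling partner of CD74, was the most abundant. It had 12087 and 13412 expected counts in PC9 and 4699 and 4218 in PC9OR, or 70.6 and 62.4 FPKM against 19.1 and 16.9 FPKM. Both PC9OR libraries were below both PC9 libraries, and the replicates of each line lay close together. The means were 490 ± 35.8 CPM in PC9 and 139 ± 10.5 CPM in PC9OR (SD, n = 2), a log2 fold change of −1.82 (SE 0.124), or 3.52-fold lower in PC9OR. The log2 fold change was −1.47 with the length offsets. In bulk RNA, fewer cells with a transcript and less of it per cell cannot be told apart.

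*CD44* is made as several isoforms that differ in their variable exons, and 8 of its RefSeq transcripts were counted. Its transcript length weighted by isoform use was 5263 and 5254 bases in PC9 and 5378 and 5383 bases in PC9OR. The length was greater in both PC9OR libraries, by 123 bases or 2.33% on average (5258 ± 6.41 against 5381 ± 3.57, SD, n = 2). Of the 6712 genes whose weighted length varied by over 1 base among libraries, 21.0% were longer in both PC9OR libraries than in both PC9 libraries. The median size of the difference over these genes was 10.3 bases, and 11.2% had a larger one than *CD44*. The lengths do not show which isoforms differed.

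*ACKR3* (Entrez 57007, chromosome 2 from 237476430 to 237490997, plus strand), an atypical chemokine receptor that takes up CXCL12 and signals through arrestins, was low in both lines. It had 54 and 36 counts in PC9 and 242 and 256 in PC9OR, or 0.82 and 0.44 FPKM against 2.64 and 2.74 FPKM. The lines did not overlap, PC9OR being higher. The means were 1.78 ± 0.746 CPM in PC9 and 7.78 ± 0.317 CPM in PC9OR (SD, n = 2), a log2 fold change of 2.14 (SE 0.365) or 4.398-fold. On the log2(FPKM + 1) scale, which understates changes of low genes, it was 1.19.

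The canonical MIF receptor itself was hardly seen. *CD74* (Entrez 972, chromosome 5 from 149781200 to 149792532, minus strand) had 2 counts in PC9 replicate 1 and was not listed in the other 3 libraries. *CXCR4* (Entrez 7852, chromosome 2 from 136871919 to 136876747, minus strand), the receptor of CXCL12, had 1 count in PC9OR replicate 2 and none elsewhere. *CXCR2* (Entrez 3579, chromosome 2 from 218990012 to 219001974, plus strand), the receptor of CXCL1 and CXCL8, was not listed in any library. All 3 stayed at or under the floor of 3 counts in both lines, so no fold change is given and a difference was not detectable at this depth.

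**Figure D1:**
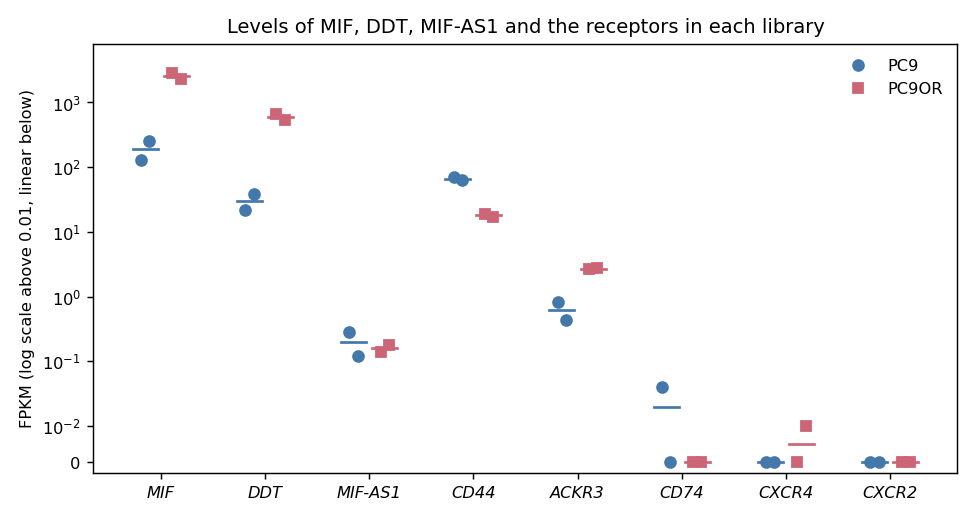
FPKM of the 8 genes in each library, on an axis that is logarithmic above 0.01 and linear below it. Circles are PC9 libraries, squares are PC9OR libraries and bars are means of 2 libraries. *MIF*, *DDT* and *ACKR3* were higher in both PC9OR libraries, *CD44* was lower, *MIF-AS1* overlapped and the other 3 genes were at or near 0.

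Ordered by mean FPKM, the members ran *MIF*, *CD44*, *DDT*, *ACKR3*, *MIF-AS1* in PC9 and *MIF*, *DDT*, *CD44*, *ACKR3*, *MIF-AS1* in PC9OR. No neighbours among these 5 had overlapping replicate ranges in either line. *CD74*, *CXCR4* and *CXCR2* followed in both lines with ranges that overlapped. *DDT* and *CD44* had changed places. The FPKM of *MIF* was 1.84 and 4.05 times that of *CD44* in the PC9 libraries and 148 and 134 times in the PC9OR libraries, while the FPKM of *CD44* was 86.1 and 142 times that of *ACKR3* in PC9 and 7.24 and 6.16 times in PC9OR.

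**Figure D2:**
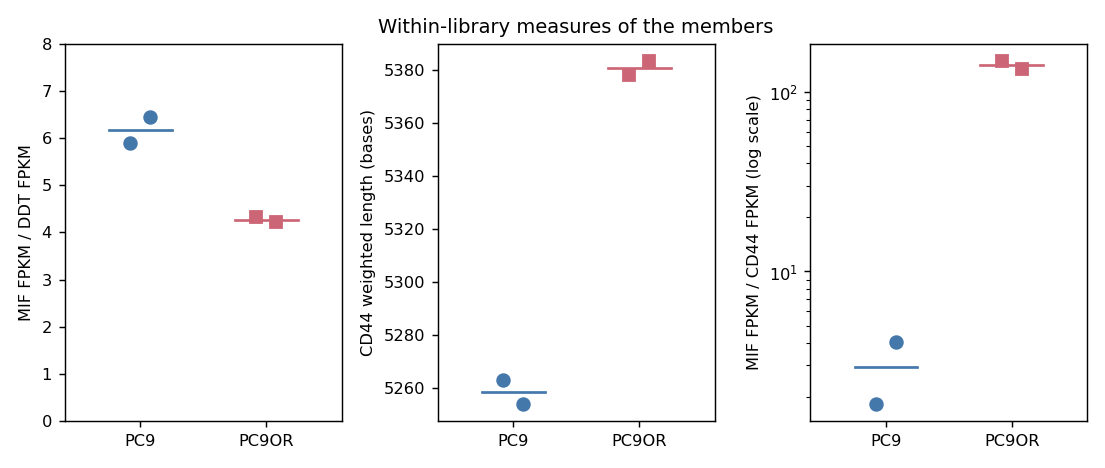
Measures taken within each library, with circles for PC9, squares for PC9OR and bars for the mean of 2 libraries. The left panel shows the *MIF* to *DDT* FPKM ratio, lower in PC9OR (4.27 against 6.18), the middle panel the weighted *CD44* transcript length in bases on an axis that does not start at 0, longer in PC9OR (5381 against 5258), and the right panel the *MIF* to *CD44* FPKM ratio on a log axis, at 134 and 148 in PC9OR against 1.84 and 4.05 in PC9.

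Of the 8 members, 5 passed the filter on low counts. In the fit over all genes, 15.6% of the 13148 genes were called higher in PC9OR and 20.8% lower, at an adjusted p under 0.05, and the members held 3 of the former (*MIF*, *DDT*, *ACKR3*) and 1 of the latter (*CD44*). The PC9OR libraries lay wholly above those of PC9 for 39.6% of the genes and wholly below for 38.2%, and so did the same 3 and 1 members. As the members were picked on this contrast, nothing is read from these counts.

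The fold changes of the 4 members kept their sign under each alternative processing that was run. *MIF* ranged from 3.12 to 4.27 and *DDT* from 3.69 to 4.74 on the log2 scale, with the lowest value of each from the length offsets and the highest without PC9 replicate 2. *CD44* ranged from −1.90 to −1.47, and *ACKR3* from 1.19 to 2.63.

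**Figure D3:**
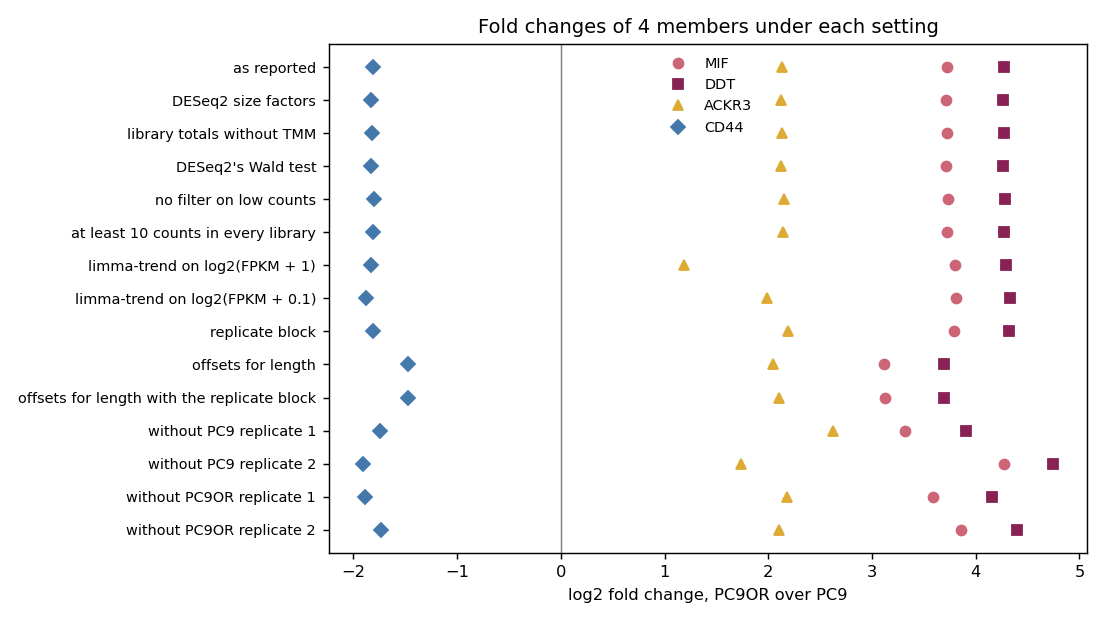
Log2 fold change of PC9OR over PC9 for *MIF* (circles), *DDT* (squares), *ACKR3* (triangles) and *CD44* (diamonds) under each processing setting, one row per setting, with the grey line at no change. *DDT* lay to the right of *MIF* in every row, and *CD44* stayed between −1.90 and −1.47.

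The surroundings of the ligand pair were then read. Of the 10 listed genes nearest to *MIF* by position, 5 on each side, *MIF-AS1*, *DDTL* and *DDT* are described above. Of the others, *SMARCB1*, *CABIN1* and *SLC2A11* had at least 10 counts in every library. Each was higher in PC9OR at an adjusted p under 0.05 (edgeR, quasi-likelihood test, Benjamini-Hochberg adjustment). Of all genes tested, 15.6% were called higher. *SMARCB1*, a subunit of the SWI/SNF chromatin remodelling complex, 107452 bases before the *MIF* start, had 46.8 and 45.1 CPM in PC9 and 414 and 411 CPM in PC9OR (log2 fold change 3.17, SE 0.109, adjusted p = 0.00167). *CABIN1*, a calcineurin inhibitor 171072 bases after the *MIF* start, had 74.3 and 43.1 CPM in PC9 and 311 and 282 CPM in PC9OR (2.34, SE 0.279, adjusted p = 0.00761). *SLC2A11*, a sugar transporter gene, rose from 1.79 ± 0.181 to 11.5 ± 0.805 CPM (SD, n = 2, 2.69, SE 0.234, adjusted p = 0.005).

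*MMP11*, a matrix metalloproteinase gene, went from 4 and 16 counts in PC9 to 110 and 105 in PC9OR (log2 fold change 3.16, SE 0.579). It passed the filter on low counts only through PC9OR, so its test is left out. *CHCHD10*, of a mitochondrial protein, had 2.92 and 0 counts in PC9, under the floor, and 104 and 82.3 in PC9OR, and it passed the filter on low counts only through PC9OR, so no test is given. *VPREB3* was too low to test, with 1 and 0 counts in PC9 and 8 and 11 in PC9OR. *GSTT2B*, a glutathione transferase gene, ran the other way with 3 and 6.15 counts in PC9 and none in PC9OR, and was also too low to test. In a window of 0.5 Mb on each side of the *MIF* start, which was set after the values were seen, the 8 other tested genes over the floor in PC9 had log2 fold changes from 1.09 to 3.17 with a median of 2.19, and 2 more genes were at or under the floor there. *MMP11* is among the 8.

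Set against its neighbours with at least 10 counts in every library, *MIF* was closer between the lines. The CPM of *MIF* was 1.70 and 3.44 times that of *SMARCB1* in PC9 and 4.09 and 3.41 times in PC9OR, so the ranges overlapped, by a narrow margin. Against *CABIN1* it was 1.07 and 3.596 times in PC9 and 5.46 and 4.97 times in PC9OR, and against *SLC2A11* 41.3 and 93.1 times and 140 and 128 times, and neither of these overlapped. *DDT* stood at 0.326 and 0.608 times *SMARCB1* in PC9 and 1.08 and 0.925 times in PC9OR, and its ranges overlapped against none of the 3 neighbours. These ratios were not corrected for the length trend. With length offsets the log2 fold changes lay closer together, at 3.12 for *MIF* and 3.69 for *DDT*. They were then 2.99 for *SMARCB1*, 2.90 for *CABIN1* and 2.76 for *SLC2A11*. Among the genes around it, *MIF-AS1* was at a log2 fold change of −0.19 between *SLC2A11* at 2.69 and *DDT* at 4.27.

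**Figure D4:**
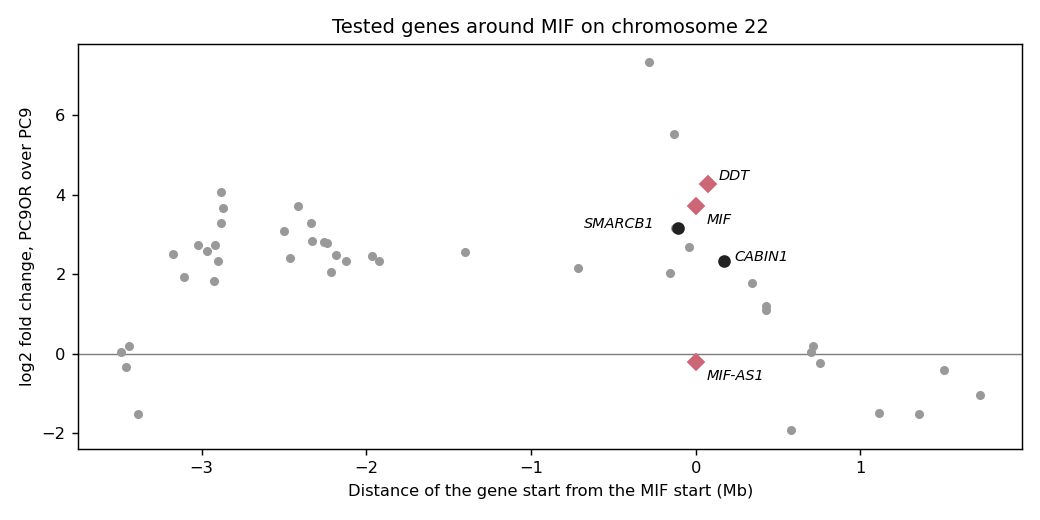
Log2 fold change of PC9OR over PC9 for tested genes of chromosome 22, against the distance in Mb of each gene start from the *MIF* start. Diamonds mark *MIF*, *DDT* and *MIF-AS1*, dark circles mark *SMARCB1* and *CABIN1*, and grey circles the other genes. *MIF* (3.72) and *DDT* (4.27) lay among neighbours above 0, and *MIF-AS1* lay at −0.19. The highest 2 points are genes at or under the floor in PC9, whose fitted values depend on the prior count.

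The 109 other genes of the MIF pathway were then examined in lists by role, of which 89 passed the filter on low counts. In the same edgeR fit, adjusted over all genes, 8 of the 89 were higher in PC9OR (8.99%), 27 were lower (30.3%) and 54 were not called. Over all genes tested these shares were 15.6% and 20.8%. The 27 lower genes include *TNF*, which passed the filter on low counts only through PC9. The median log2 fold change of the 89 genes was −0.21, against 0.01 over all genes tested. With length offsets these medians were −0.14 and 0.07. The counts moved when a library was left out, as the spread then came from the other line alone. Those over all genes moved in the same way, so nothing about the pathway genes is read from this. With length offsets and the replicate number as a block, 14 of the 89 were higher and 26 lower, beside 3106 higher and 2595 lower over all genes.

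Of the 28 genes of receptor signalling, 2 were higher, 12 lower and 14 not called. Their median was −0.24, or −0.07 with length offsets. *MAPK3*, the ERK1 kinase, was 0.62 higher on the log2 scale (adjusted p = 0.0364, and 0.0687 with length offsets). *PIK3CB*, the p110-beta catalytic subunit of PI3K, fell by 3.20 on the log2 scale (adjusted p = 0.00401). Both beta-arrestin genes were lower, *ARRB1*, which fell by 1.97 (adjusted p = 0.0052), and *ARRB2*, which fell by 1.87 (adjusted p = 0.00959), and their proteins couple chemokine receptors such as ACKR3 to uptake.

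The list of other ligands of the same receptors was shorter, with 6 of 11 genes tested, 0 higher, 2 lower and 4 not called, and at an unadjusted p under 0.05 also 2 changed in all. Its 11 genes include a receptor gene that was not listed in any library. *CXCL1* and *CXCL8* encode chemokines that act through CXCR2. *CXCL1* fell by 3.38 on the log2 scale (adjusted p = 0.00547) and *CXCL8* fell by 1.52 (adjusted p = 0.0113). *CXCL12*, the ligand of CXCR4 and ACKR3, had at most 1 count in a library. The median of this list was −1.13, or −1.44 with length offsets.

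Among 16 tested genes of 20 that make, bind, anchor or shed CD44 or its ligands, 2 were higher, 3 lower and 11 not called, with a median of −0.17 that became 0.06 with length offsets. *HAS3*, a hyaluronan synthase, fell from 8.03 ± 2.82 to 0.781 ± 0.441 CPM (SD, n = 2, log2 fold change −3.35, adjusted p = 0.0119). *NF2*, which encodes merlin, a protein that binds the tail of CD44, fell by 0.73 (adjusted p = 0.0194, at −0.35 with length offsets), and *CEMIP*, of a protein that degrades hyaluronan, fell by 0.59 (adjusted p = 0.0308, and 0.588 with length offsets). *EZR*, of the ezrin anchor, was 0.42 higher (adjusted p = 0.0411, 0.0523 with the replicate block and 0.077 by limma-trend on log2(FPKM + 1)), and *SPP1*, of the CD44 ligand osteopontin, 0.50 higher (adjusted p = 0.046, and 0.0597 with length offsets).

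*CD74* works with MHC class II, and of 15 genes of that assembly line 7 were tested, with 1 higher, 2 lower and 4 not called. Their median was −0.08, or −0.27 with length offsets. *RFXANK*, a subunit of the RFX factor that drives class II promoters, was 0.97 higher (adjusted p = 0.0102), and its partner *RFXAP* fell by 1.195 (adjusted p = 0.033). *CTSS*, the cathepsin that trims the invariant chain, fell by 2.197 (adjusted p = 0.0118). *CIITA*, the master activator of class II genes and of *CD74*, had 4 and 5 counts in PC9 and 0 and 4 in PC9OR and was not tested.

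Of 12 genes whose proteins bind MIF, 2 were higher, 2 lower and 8 not called. Their median was −0.14, or −0.12 with length offsets. *TXNIP* was 0.66 higher (adjusted p = 0.0151) and *COPS5*, a subunit of the COP9 signalosome also known as JAB1, 0.50 higher (adjusted p = 0.0381, and 0.0894 with length offsets). *USO1*, the Golgi tether p115, fell by 1.38 (adjusted p = 0.00479) and *MDM2*, the ubiquitin ligase of p53, fell by 0.99 (adjusted p = 0.00597), a log2 fold change of −0.46 with length offsets. Of 8 transcription factors known to act at the *MIF* promoter, 0 were higher, 1 was lower and 7 were not called. An unadjusted p under 0.05 was found for 4 of the 8 (and for 50.6% of all genes tested). Their median was −0.31, or −0.12 with length offsets. *SP1*, which binds GC boxes, fell by 0.99 (adjusted p = 0.0102), a log2 fold change of −0.44 with length offsets, and *HIF1A* was at −0.35 (adjusted p = 0.0578).

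Of 12 tested genes of 15 listed as responding to MIF, not all of them by induction, 1 was higher, 5 were lower and 6 were not called. Of all genes tested, 15.6% were called higher and 20.8% lower. The median of the list was −1.03, or −0.89 with length offsets. *IL1B*, of the cytokine interleukin-1 beta, fell from 120 ± 7.67 to 5.76 ± 0.546 CPM (SD, n = 2, log2 fold change −4.38, adjusted p = 0.00167). *TNF*, counted among the 5 lower genes, fell by 2.68, from 0.821 ± 0.0153 to 0.125 ± 0.0443 CPM (SD, n = 2). It had 3 and 5 counts in the PC9OR libraries and passed the filter on low counts only through PC9, so its test is left out. *ICAM1*, an adhesion molecule, fell by 1.83 (adjusted p = 0.00471). *MMP9*, a gelatinase, was the 1 gene that rose, from 0.447 ± 0.0923 to 6.56 ± 1.19 CPM (SD, n = 2, 3.87, adjusted p = 0.00529). Of the 24 pathway genes that the naming rule takes, the call of 12 held under each alternative fit, among them *PIK3CB*, *CXCL1*, *IL1B*, *ICAM1* and *MMP9*, while 12 lost it without PC9OR replicate 1 and 11 without PC9OR replicate 2. In those fits the spread came from the PC9 pair alone, the more variable one, and the lone PC9OR library is assumed to vary like it.

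**Figure D5:**
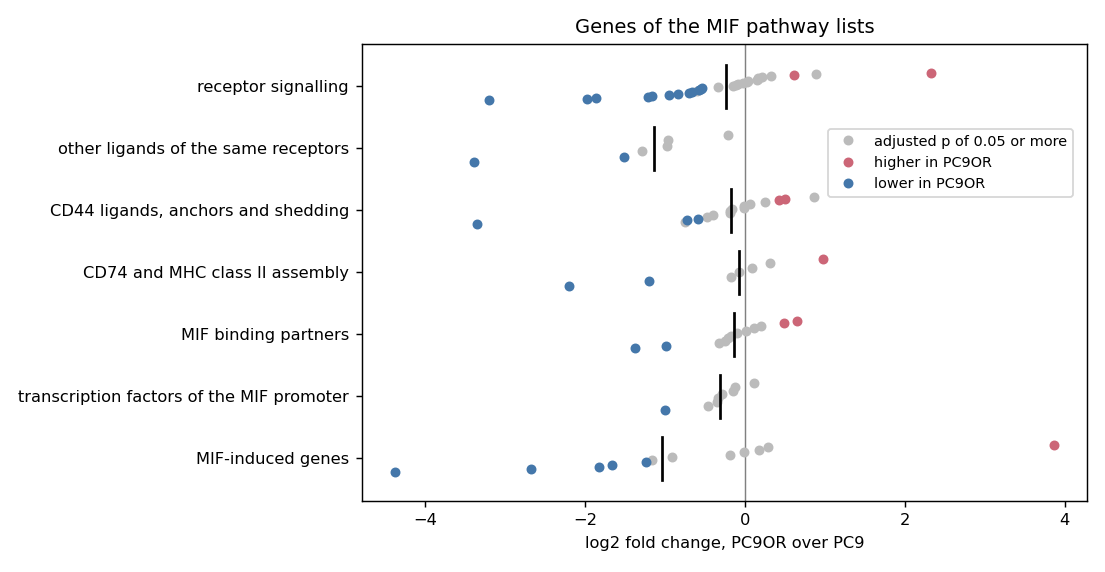
Log2 fold change of PC9OR over PC9 for the tested genes of each pathway list, with one row per list and the vertical bar at the list median. Red points were higher and blue points lower at an adjusted p under 0.05, and grey points were not called. *TNF* is among the blue points, though its test is left out of the text. The row of MIF-induced genes holds genes listed as responding to MIF, not all of them by induction. *MMP9* (3.87) lies farthest to the right and *IL1B* (−4.38) farthest to the left.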

How the data were processed

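The files that the authors deposited give 3 values per gene and library, namely an expected count (reads estimated for the gene, without normalization), an FPKM (that count scaled by length and depth) and a length that averages the gene's transcripts by their use. The submitters' processing notes name Bowtie2 2.2.5, RSEM 1.2.12 and GRCh37, and the study's methods name SOAP for read filtering. The strand setting of the counting is not given in the sources used here. Such counts divide reads that fit several genes or isoforms by a model, so overlapping genes are uncertain.

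Absent genes were set to 0. Entrez identifiers were matched to symbols for 99.7% of the genes through the RefSeq table, and positions came from GENCODE v44 lifted to GRCh37. Expected counts were rounded and fitted in R 4.3.3 with edgeR 4.0.16 (TMM, filterByExpr, the quasi-likelihood test, Benjamini-Hochberg adjustment over 13148 genes, called at an adjusted p under 0.05). The study's DEGseq was not run. CPM values use TMM-scaled totals. Standard errors are those of the log2 fold change in this fit.

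Alternatives were DESeq2 1.42.0 size factors and its Wald test, library totals, other filters on low counts, limma-trend (limma 3.58.1) on log2(FPKM + 1) and log2(FPKM + 0.1), the replicate block, offsets for transcript length fitted with mgcv 1.9.3, each library left out, and a stricter call (over 2-fold, adjusted p under 0.001). The scripts were tested on simulated data. The members and lists were chosen with earlier results of these data known. The genes named are the members, *DDTL*, the 5 listed genes nearest to *MIF* on each side, at most 3 higher and 3 lower called genes of each pathway list by size of change, and the 5 genes with the pattern most like that of *MIF*. The result for 1 gene that the rule takes and the promoter sequences are not reported here. Genes named beyond this rule, namely *CXCL12*, *CIITA*, *HIF1A*, *PIK3R1* and single cell type markers, were picked after their values were seen. The labels call the libraries biological replicates without saying whether cultures were separate, so p-values measure the spread between these libraries.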

Additional observations from a re-analysis of the deposited data

How the results depend on the processing

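Offsets for transcript length moved the log2 fold changes of *MIF* to 3.12, of *DDT* to 3.69 and of *CD44* to −1.47. With the replicate block added, the offsets gave 3.12, 3.69 and −1.47, with 3106 genes higher in all and 14 higher in the pathway lists. Limma-trend on log2(FPKM + 1) gave 1.19 for *ACKR3*, whose PC9 level lies below that pseudocount. Leaving out each library in turn gave 525 to 3932 genes higher and 1177 to 3929 lower, 3 to 15 pathway genes higher and 13 to 40 lower, and log2 fold changes of 3.32 to 4.27 for *MIF*, 3.91 to 4.74 for *DDT* and 1.74 to 2.63 for *ACKR3*. Under the stricter call (over 2-fold, adjusted p under 0.001), edgeR gave 0 genes higher and 0 lower, in all and in the lists, its smallest adjusted p being 0.00155. With over 2-fold change and an unadjusted p under 0.05 it gave 967 higher and 1718 lower, of which 2 and 17 were in the lists, and DESeq2's Wald test at the strict threshold gave 497 and 1238, of which 2 and 16 were in the lists.

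The labels state no pairing of libraries by number, and deviations of same-numbered libraries had a correlation of 0.0553. With 2 libraries per line, that value cannot settle whether same-numbered libraries were made together. The replicate block alone gave 2593 genes higher and 2946 lower, and 8 and 29 pathway genes, and it changed 1 call among the named pathway genes, that of *EZR* (adjusted p = 0.0523). Over the 24 named pathway genes and all alternative fits, 298 of 335 values kept their call, 37 lost it and 0 changed direction. With 2 libraries per line and members at or under 3 counts, differences of *CD74*, *CXCR4* and *CXCR2* could not be measured.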

Other observations

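The 5 tested genes with the log2 CPM pattern nearest to that of *MIF* over the 4 libraries, by Euclidean distance of the values centred on each gene's mean, were *LY9*, *DUSP23* (distance 0.358), *SPTB* (0.375), *LNX1* and *RTN4RL1*. *LY9*, *LNX1* and *RTN4RL1* passed the filter on low counts only through PC9OR, and *LY9* and *LNX1* were also under the floor of 3 counts in PC9. The distances of these genes depend on the prior count and are not given. None of the 5 lies on chromosome 22. *DUSP23*, a dual-specificity phosphatase gene on chromosome 1, had 1.92 and 3.36 CPM in PC9 and 30.4 and 27.6 CPM in PC9OR. *SPTB*, of the beta spectrin of red cells, on chromosome 14, had 0.512 and 1.32 CPM in PC9 and 11.5 and 12.9 CPM in PC9OR. *RTN4RL1*, on chromosome 17, had 0.171 and 0.277 CPM in PC9 and 3.96 and 4.60 CPM in PC9OR. *LY9* and *LNX1* were at 0 and 0.0347 CPM in the PC9 libraries, and reached 1.31 and 0.907 CPM and 0.968 and 0.719 CPM in the PC9OR libraries.

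*PIK3R1*, the regulatory subunit of PI3K, was not listed in PC9 replicate 1 and had 372 counts in PC9 replicate 2 and 383 and 392 in the PC9OR libraries, and it was chosen after its values were seen.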
